A study of Mus musculus with 18 samples.

Results

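Kainate, delta and NMDA receptors are the ionotropic glutamate receptors that work beside the fast AMPA receptors at central synapses. Kainate receptors are tetramers of Grik-encoded subunits that pass current after synapses and modulate release before them. Delta receptors bind cerebellins and glycine or D-serine and act mostly as synaptic organisers. NMDA receptors need glutamate and a co-agonist together, admit calcium, and combine the obligatory Grin1 subunit with Grin2 subunits. In the cerebellum, granule cells express Grik2 and replace Grin2b with Grin2c as they mature. The members followed here are Grik1, Grik2, Grid1, Grin1, Grin2a, Grin2b and Grin2c, chosen by name with earlier results of these data known. Every probe set that carries exactly 1 of these symbols was taken, which gave 12 of 34945 probe sets with a single symbol and 6 of 18193 genes. Grik1, Grik2 and Grid1 had 2 probe sets each, Grin2b had 4, and Grin2a and Grin2c had 1 each. No probe set carried Grin1 as its only symbol, so it was not analysed here.

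The arrays measured total RNA from the cerebellum of C57BL/6 mice in 3 lines made to study spinocerebellar ataxia type 6, a disease caused by a glutamine expansion in the Cav2.1 calcium channel. The mutants were homozygous MPI 118Q/118Q knock-in, Sca6 CtmKO/CtmKO (called Ctm knockout below) and MPI 11Q/11Q knock-in mice, whose names give 118 and 11 glutamines for the knock-in alleles. Each line had its own wild-type littermates, and each of the 6 groups held 3 arrays. The study's design text gives an age of 6 weeks for the 118Q/118Q and CtmKO/CtmKO mutants; for the 11Q knock-ins and for all wild types no age was used here. The labels give 3 mice a group and nothing more on how separately the samples were prepared, so p-values measure the spread between these arrays. Since the RNA came from whole cerebellum, fewer cells of a type and less RNA per cell cannot be told apart.

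The median log2 value of an array ranged from 2.38 to 2.55. The granule cell gene Gabra6 and the Purkinje cell gene Pcp2 were above the array's own median on all 18 arrays, and the forebrain gene Emx1 on 0. Summed as a mean over its 7 measured markers, the choroid plexus list ranged from 2.77 to 6.82 between arrays. It was 4.06 in 11Q knock-ins and 6.34 in their wild types (two-sided exact permutation p = 0.10, the smallest that 3 against 3 arrays allow). A measure of RNA quality, the 3' minus 5' difference of control probe sets, was 0.45 in 118Q knock-ins and 0.55 in their wild types, without overlap (exact permutation p = 0.10). Ctm wild-type arrays 2 and 3 stood apart from other wild types: the mean of the 4 AMPA receptor genes was 7.54 and 7.40 on them and at least 7.82 on the other wild types. Results that rest on these 2 arrays are given with and without them. Leaving them out keeps a single Ctm wild-type array, so the loss of a call in that setting can be a loss of power. Values below are log2 levels and log2 changes, mutant minus its own wild types, with limma's standard error (SE) and the p adjusted by Benjamini-Hochberg over all 34945 probe sets. A probe set is called at an adjusted p below 0.05.

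Across the 3 lines, 1 member probe set was called in 1 comparison: Grik2 1457683_at was higher in Ctm knockouts. Limma called 0 of 12 in the 118Q line, where 0.558% of all probe sets were. At an unadjusted p below 0.05 there were 4 of 12, against 14.1% of all probe sets. It called 1 of 12, higher, in the Ctm line, where 0.916% of all probe sets were called and 0.858% were called higher. At an unadjusted p below 0.05 there were 3 of 12, against 11.0%. It called 0 of 12 in the 11Q line and 0.00% of all probe sets, and 0 of 12 against 5.24% had an unadjusted p below 0.05. The median change of the members was 0.031 in the 118Q line, 0.025 in the Ctm line and 0.0079 in the 11Q line. Over all probe sets it was 0.034, -0.041 and -0.011. Mutant and wild-type arrays did not overlap for 3 of 12 members in the 118Q line (16.3% of all probe sets), 4 of 12 in the Ctm line (19.4%) and 1 of 12 in the 11Q line (9.88%).

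**Figure D1:**
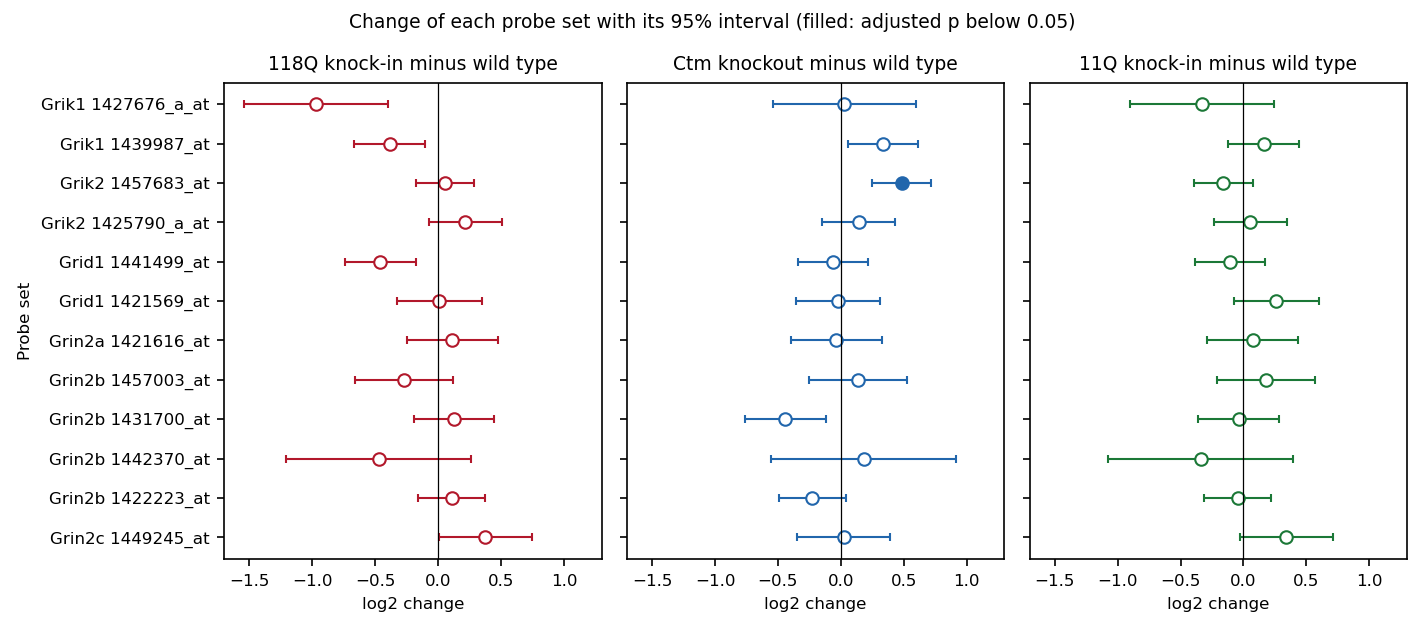
Log2 change, mutant minus wild-type littermates, for each of the 12 member probe sets in the 118Q, Ctm and 11Q lines, with limma's 95% interval from 3 arrays a group. Grik1 1427676_a_at lies lowest at -0.97 in the 118Q line, and Grik2 1457683_at in the Ctm line, at 0.48, is the only called value.

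Grik1 encodes the kainate receptor subunit GluK1. Its brightest probe set, 1427676_a_at, lay above the array median on all 18 arrays. Among the 118Q mice it read 3.68, 4.12 and 4.40 in wild types and 3.88, 2.50 and 2.90 in knock-ins. Knock-in arrays 2 and 3 were the lowest of all 18 arrays, and knock-in array 1 lay inside the range of its wild types. The change was -0.97 (SE 0.27), with a 95% interval from -1.54 to -0.40 and a limma adjusted p of 0.102, so it did not pass. Without knock-in array 1 it was -1.36 and passed (limma adjusted p = 0.00413), and without knock-in array 2 it was -0.68 (limma adjusted p = 0.365). Array weights brought it to -1.10 (limma adjusted p = 0.00629), and a control of all 6 wild types from the 118Q and 11Q litters to -0.99 (limma adjusted p = 0.0157). Over all 34945 probe sets array weights and this control also raised the calls of the 118Q line, from 195 to 1681 and 2262. Leaving out 1 of the 6 arrays of the line moved that count too, to between 1 and 1078.

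The other Grik1 probe set, 1439987_at, was below the array median on all 18 arrays. The 118Q arrays read 1.56, 1.51 and 1.67 in wild types and 1.495, 1.11 and 0.98 in knock-ins. All 3 knock-ins were below all 3 wild types. The change was -0.39 (SE 0.13, limma adjusted p = 0.177), and it passed without knock-in array 1 at -0.54 (limma adjusted p = 0.0302). It also passed with array weights at -0.48 (limma adjusted p = 0.0243) and against those 6 wild types at -0.44 (limma adjusted p = 0.0290). As given above, array weights and this control raised the calls over all probe sets, and leaving out 1 array moved them. The 2 Grik1 probe sets therefore gave the same sign in this line, and neither passed against its own wild types with all arrays kept and equally weighted.

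Marker lists of Purkinje cells, inhibitory interneurons and endothelial cells were also low on knock-in arrays 2 and 3 of the 118Q line. The mean of the 8 measured Purkinje cell markers deviated from the wild-type mean by -0.22, -0.90 and -0.68 on knock-in arrays 1, 2 and 3, against -0.024 to 0.041 in wild types. Of those 8 markers, 5 fell by the limma test (0.731% of all genes fell), with the glutamate transporter Slc1a6 at -1.11. The mean of the 10 markers of inhibitory interneurons and Golgi cells deviated by -0.040, -0.77 and -0.47, against -0.12 to 0.10 in wild types, and 1 of 10 fell. The 6 endothelial markers deviated by -0.25, -0.77 and -0.71, and 2 of 6 fell. The 9 granule cell markers deviated by -0.015, -0.15 and -0.066, and 0 of 9 passed. The 8 measured Bergmann glia and astrocyte markers deviated by -0.16, 0.21 and 0.18, against -0.15 to 0.20 in wild types, and 0 of 8 passed. The 10 microglia markers deviated by 0.81, 0.39 and 0.64, and 4 of 10 rose (0.808% of all genes rose). The part of these lists in the Grik1 values was not tested. With the RNA quality measure as covariate, the change in Grik1 1427676_a_at was -1.07 (limma adjusted p = 0.167).

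**Figure D2:**
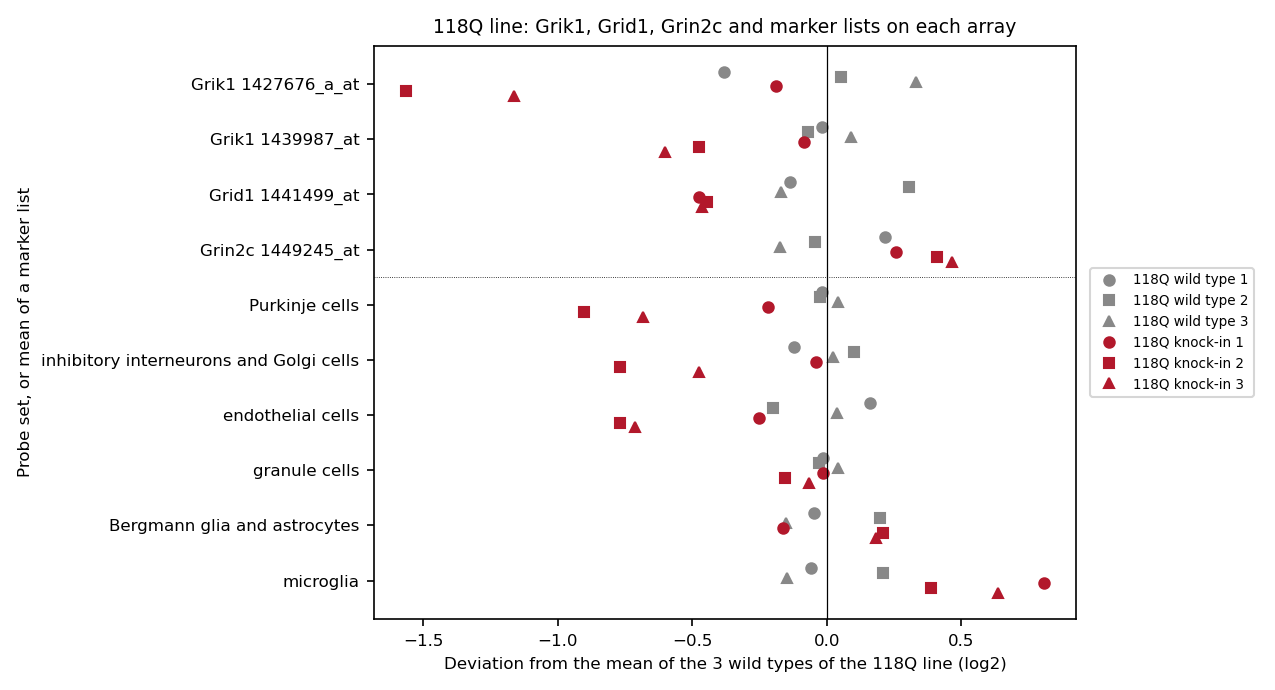
Deviation of each 118Q-line array from the mean of the 3 wild-type arrays (log2) for the 4 member probe sets with an unadjusted p below 0.05 and for the means of 6 cell type marker lists. Knock-in arrays 2 and 3 are low for Grik1 and for the Purkinje cell list (-0.90 and -0.68), and knock-in array 1 is nearer to the wild types (-0.22).

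The Ctm arrays read, for Grik1 1427676_a_at, 4.04, 4.03 and 4.12 in wild types and 4.15, 4.02 and 4.10 in knockouts, which overlap. The change was 0.028 (SE 0.27), with a 95% interval from -0.54 to 0.60. Probe set 1439987_at read 1.35, 1.36 and 1.02 in wild types and 1.55, 1.63 and 1.56 in knockouts, so all knockouts were above. That change was 0.33 (SE 0.13, limma adjusted p = 0.327), and against the 6 wild types of the other lines it was -0.047. For 1427676_a_at the 11Q arrays read 3.77, 3.87 and 4.69 in wild types and 3.65, 3.87 and 3.83 in knock-ins, which overlap. The change of -0.33 (SE 0.27, limma adjusted p = 0.913) became -0.039 without wild-type array 3, which is the highest of all 18 arrays. Probe set 1439987_at was 0.16 higher there (SE 0.13, limma adjusted p = 0.913).

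Ordered by mean, Grik1 1427676_a_at was lowest in 118Q knock-ins (3.09 ± 0.71, SD, n = 3), followed by 11Q knock-ins (3.78 ± 0.12). Those lowest groups overlap each other. The 4 other groups lay between 4.06 and 4.11 and overlap among themselves, and the nearest of them, the Ctm wild types, did not overlap the 11Q knock-ins. Between lines, the difference in the change of 1439987_at, 118Q minus Ctm, was -0.72 (SE 0.19, limma adjusted p = 0.0577), and did not pass. For 1427676_a_at it was -1.0 (SE 0.38, limma adjusted p = 0.187). Among the 12 member probe sets, 0 passed the test of 118Q minus Ctm, 118Q minus 11Q or Ctm minus 11Q by limma. Over all probe sets 1.63%, 0.00% and 0.00% passed, and at an unadjusted p below 0.05 the members numbered 5, 1 and 1 of 12, against 16.5%, 8.98% and 7.91%.

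**Figure D3:**
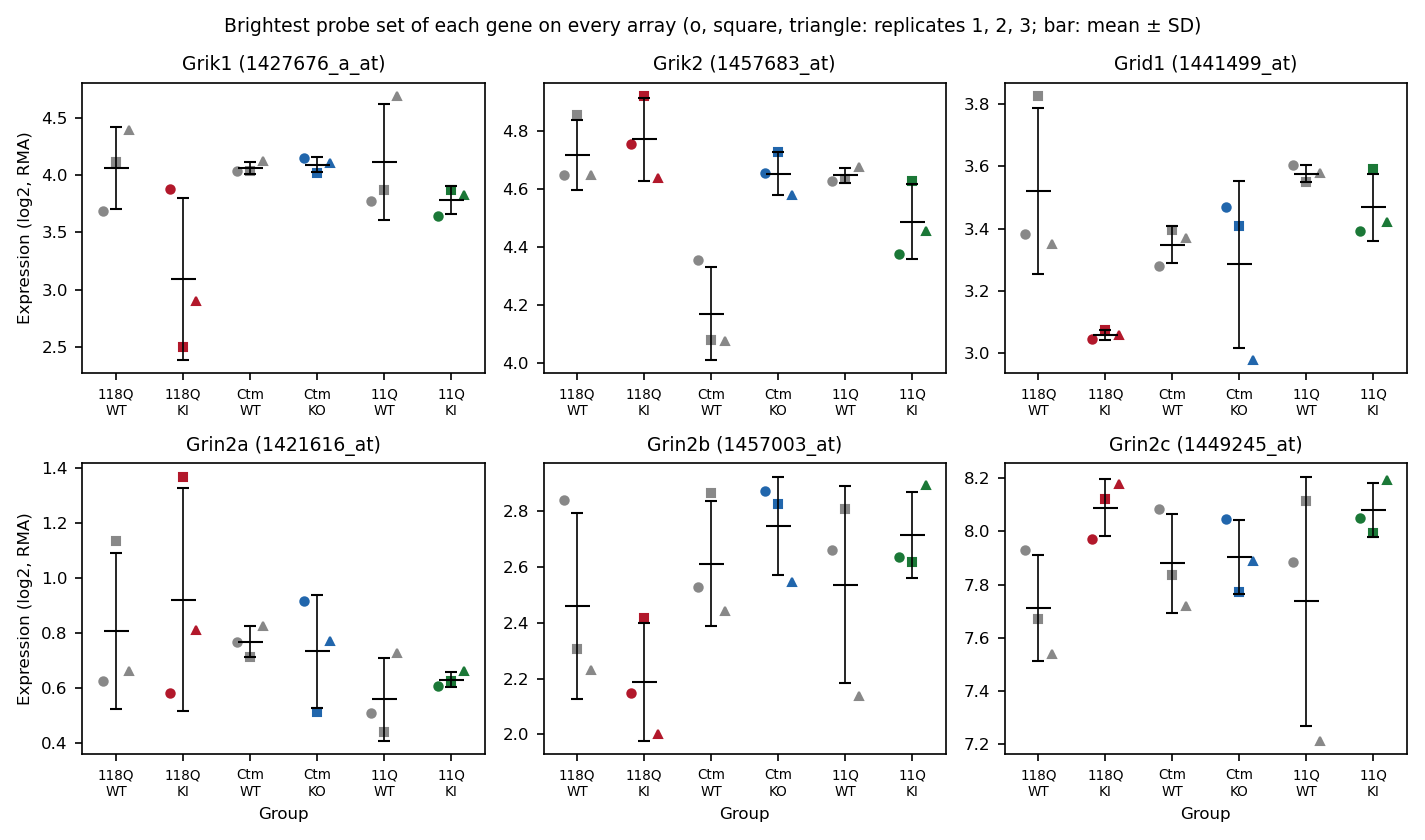
Log2 level of the brightest probe set of each of the 6 measured members on every array, by group, with the mean and SD of 3 arrays. Circle, square and triangle mark replicates 1, 2 and 3, which have no order. Grik2 is lowest in Ctm wild types, at 4.17, and Grik1 in 118Q knock-ins, at 3.09.

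Grik2 encodes GluK2, the kainate receptor subunit found in cerebellar granule cells. Probe set 1457683_at lay above the array median on all 18 arrays. Among the Ctm mice it read 4.35, 4.08 and 4.08 in wild types and 4.65, 4.73 and 4.58 in knockouts. All knockouts were above all wild types. Grik2 1457683_at rose by 0.48 (SE 0.11), which is 1.40-fold, from 4.17 to 4.65 (limma adjusted p = 0.0449, 0.0388 on the level of genes). The 6 wild types of the 118Q and 11Q lines averaged 4.68, and the Ctm knockouts lay 0.029 below them (limma adjusted p = 0.877). The 3 Ctm wild types were below all 15 other arrays, whose lowest value was 4.38.

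Leaving out 1 array of the Ctm line ended the Grik2 call in 5 of 6 cases. It was kept without Ctm wild-type array 1, at 0.58 (limma adjusted p = 0.0093). It was lost without wild-type array 2 (0.44, limma adjusted p = 0.136) or 3 (0.44, limma adjusted p = 0.276), and without knockout array 1, 2 or 3 (limma adjusted p = 0.176, 0.194 and 0.0888). Without wild-type arrays 2 and 3 together the change was 0.30 (limma adjusted p = 0.797). The mean of both Grik2 probe sets changed by 0.31 (limma adjusted p = 0.169).

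The other Grik2 probe set, 1425790_a_at, also lay above the array median on all 18 arrays. It read 2.91, 3.10 and 2.91 in Ctm wild types and 3.34, 3.07 and 2.92 in Ctm knockouts, which overlap. The change was 0.14 (SE 0.14, limma adjusted p = 0.784), so it did not repeat the call of the first probe set. Both Ctm groups were low for it, at means of 2.97 and 3.11, and the 4 other groups lay between 3.53 and 3.75. Against the 6 wild types of the other lines, this was the single member probe set of 12 called in Ctm knockouts, and it was lower. That control called 3678 of all 34945 probe sets in the Ctm line, against 320 with its own wild types.

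The 118Q arrays read, for Grik2 1457683_at, 4.65, 4.86 and 4.65 in wild types and 4.76, 4.92 and 4.64 in knock-ins. The groups overlap, and the change was 0.054 (SE 0.11), with a 95% interval from -0.18 to 0.29. The 11Q arrays read 4.63, 4.64 and 4.68 in wild types and 4.38, 4.63 and 4.46 in knock-ins. The knock-ins were all below, narrowly, with a change of -0.16 (SE 0.11, limma adjusted p = 0.909). The difference in the change, Ctm minus 11Q, was 0.64 (SE 0.16, limma adjusted p = 0.198). Probe set 1425790_a_at changed by 0.22 (SE 0.14) in the 118Q line and 0.055 (SE 0.14) in the 11Q line, both overlapping.

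Among the 3 wild-type groups, 4 of 12 member probe sets differed by limma's F test, against 10.6% of all probe sets, and 6 of 12 had an unadjusted p below 0.05, against 24.9%. Both Grik2 probe sets were among them (limma adjusted p = 0.00586 and 0.00653), with Ctm wild types lowest. The other pair were Grin2b 1431700_at (limma adjusted p = 0.0138) and 1422223_at (limma adjusted p = 0.0238), with Ctm wild types highest. Without Ctm wild-type arrays 2 and 3 a single array of that group remains, so the F test cannot show whether these differences hold. That single array, Ctm wild-type array 1, lay on the same side for all 4. It read 4.35 and 2.91 for Grik2 1457683_at and 1425790_a_at, below the wild types of the other lines (lowest 4.63 and 3.28). For Grin2b 1431700_at and 1422223_at it read 2.41 and 1.64, above them (highest 2.05 and 1.33).

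Grid1 encodes the delta receptor GluD1, which binds cerebellins at synapses. Probe set 1441499_at lay above the array median on all 18 arrays. Among the 118Q mice it read 3.38, 3.83 and 3.35 in wild types and 3.04, 3.07 and 3.06 in knock-ins. All knock-ins were below all wild types, with an SD of 0.015. Knock-in array 1, nearest to the wild types in Grik1 and the Purkinje cell list, was as low as the others in Grid1. The change was -0.46 (SE 0.13), with a 95% interval from -0.74 to -0.18 and a limma adjusted p of 0.115. Leaving out any 1 of the 6 arrays gave values from -0.55 to -0.31, and none passed. It passed with array weights (-0.59, limma adjusted p = 0.0183) and against the 6 wild types of the 118Q and 11Q lines (-0.49, limma adjusted p = 0.0162). Calls over all probe sets also rose in these settings, from 195 to 1681 and 2262. With the RNA quality measure as covariate it was -0.42 (limma adjusted p = 0.261).

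The other Grid1 probe set, 1421569_at, was above the array median on 1 of 18 arrays. It changed by 0.0084 (SE 0.16) in the 118Q line, and the mean of both Grid1 probe sets by -0.23 (limma adjusted p = 0.357). For 1441499_at the Ctm arrays read 3.28, 3.39 and 3.37 in wild types and 3.47, 3.41 and 2.98 in knockouts. The groups overlap, with a change of -0.062 (SE 0.13). The 11Q arrays read 3.60, 3.55 and 3.58 in wild types and 3.39, 3.59 and 3.42 in knock-ins, a change of -0.11 (SE 0.13) with overlap. Ordered by mean, 118Q knock-ins were lowest (3.06) and 11Q wild types highest (3.58), and every neighbour in the order overlaps the next.

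Grin2c encodes GluN2C, the NMDA receptor subunit of mature granule cells, and 1449245_at lay above the array median on all 18 arrays. The 118Q arrays read 7.93, 7.67 and 7.54 in wild types and 7.97, 8.12 and 8.18 in knock-ins. All knock-ins were above all wild types, by as little as 7.97 against 7.93. The change was 0.38 (SE 0.18, limma adjusted p = 0.346). The Ctm arrays read, for Grin2c, 8.08, 7.84 and 7.72 in wild types and 8.05, 7.77 and 7.89 in knockouts. These overlap, with a change of 0.022 (SE 0.18) and a 95% interval from -0.35 to 0.39. Among the 11Q mice it read 7.89, 8.11 and 7.21 in wild types and 8.05, 7.995 and 8.19 in knock-ins. The change was 0.34 (SE 0.18, limma adjusted p = 0.909), and 0.080 without wild-type array 3, the lowest of all 18 arrays. Group means ran from 7.71 in 118Q wild types to 8.09 in 118Q knock-ins, and every neighbour in that order overlaps the next.

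Grin2a encodes GluN2A, a subunit of adult NMDA receptors, and 1421616_at was below the array median on all 18 arrays. Among the 118Q mice it read 0.63, 1.13 and 0.66 in wild types and 0.58, 1.37 and 0.81 in knock-ins. The Ctm arrays read 0.77, 0.71 and 0.82 in wild types and 0.91, 0.51 and 0.77 in knockouts. The 11Q arrays read 0.51, 0.44 and 0.73 in wild types and 0.60, 0.62 and 0.66 in knock-ins. Mutants and wild types overlap in all 3 lines. The changes were 0.11, -0.036 and 0.072, each with an SE of 0.17. At so dim a signal the size of a change depends on the background step.

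Grin2b encodes GluN2B, the subunit that dominates in immature neurons. Of its 4 probe sets, the brightest, 1457003_at, was above the array median on 11 of 18 arrays, and the 3 others on 0 or 1. For 1457003_at the 118Q arrays read 2.84, 2.31 and 2.23 in wild types and 2.15, 2.42 and 2.00 in knock-ins. The Ctm arrays read 2.53, 2.86 and 2.44 in wild types and 2.87, 2.82 and 2.55 in knockouts. The 11Q arrays read 2.66, 2.81 and 2.14 in wild types and 2.64, 2.62 and 2.89 in knock-ins. All 3 comparisons overlap, and the changes were -0.27, 0.14 and 0.18, each with an SE of 0.19.

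A pair of dim Grin2b probe sets separated the Ctm groups without passing the test. Probe set 1431700_at read 2.41, 2.33 and 2.36 in Ctm wild types and 1.76, 2.09 and 1.93 in knockouts. Its change was -0.44 (SE 0.15, limma adjusted p = 0.230), and the Ctm wild types were above all 15 other arrays, whose highest value was 2.09. Against the 6 wild types of the other lines it was 0.18 in Ctm knockouts. Probe set 1422223_at ran from 1.47 to 1.64 in Ctm wild types and from 1.23 to 1.45 in knockouts, a change of -0.23 (SE 0.13, limma adjusted p = 0.546). The Grin2b probe sets did not agree in sign in any line: in the Ctm line 2 were higher and 2 lower, with 1442370_at at 0.18 (SE 0.35).

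**Figure D4:**
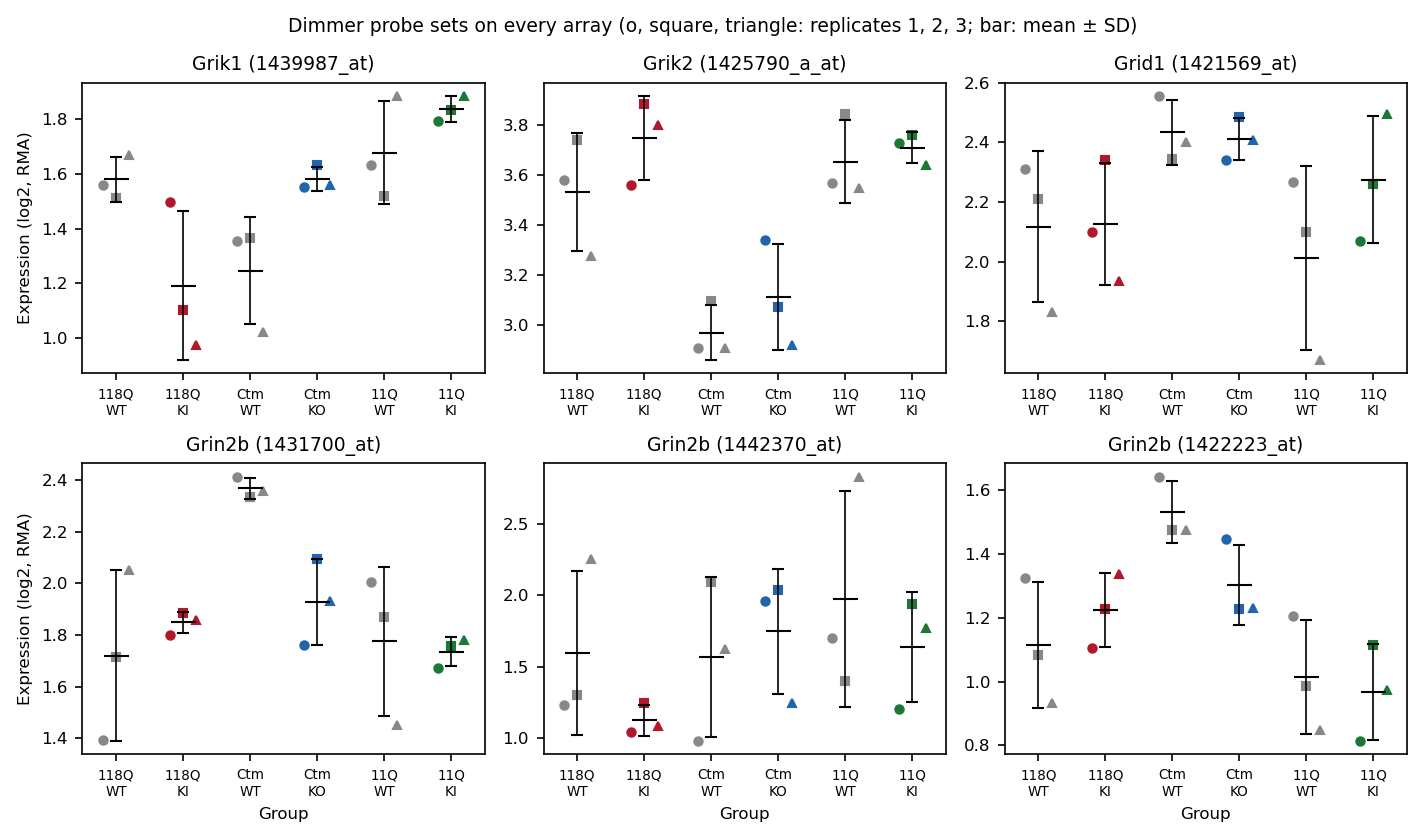
Log2 level of the 6 other member probe sets on every array, by group, with the mean and SD of 3 arrays; circle, square and triangle mark replicates 1, 2 and 3. Ctm wild types are highest for Grin2b 1431700_at (2.33 to 2.41), and both Ctm groups are low for Grik2 1425790_a_at (means of 2.97 and 3.11).

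Other genes of the same pathways were read from the brightest probe set of each gene, with p adjusted over 18193 genes, of which 1.54% were called in the 118Q line, 0.929% in the Ctm line and 0.00% in the 11Q line. Of 7 other kainate, delta and NMDA receptor subunits, 6 were measured, and 0 of 6 were called in any line. Their median change was -0.034, 0.092 and -0.061 in the 118Q, Ctm and 11Q lines, beside 0.040, -0.060 and -0.017 over all genes. In the 118Q line the kainate subunits Grik3, Grik4 and Grik5 stood at -0.79 (SE 0.29, limma adjusted p = 0.182), -0.31 and 0.57. In the Ctm line Grik5 was 0.17, Grin3a 0.11 and Grin3b -0.17, and in the 11Q line Grik5 was 0.48, Grik4 -0.14 and Grin3a -0.13.

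Of 12 measured partners of kainate and delta receptors, 0 were called in any line, and the medians were 0.048, 0.072 and -0.0080. Mutants were all below for 1 gene in the 118Q line, all above for 1 in the Ctm line and all below for 2 in the 11Q line. Over all probe sets, 16.3%, 19.4% and 9.88% did not overlap in either direction. The presynaptic adhesion gene Nrxn3, which binds cerebellins, was at -0.31 in 118Q knock-ins (SE 0.087, limma adjusted p = 0.0809), with all knock-ins below. It was 0.20 in Ctm knockouts (SE 0.087, limma adjusted p = 0.371), with all knockouts above. The kainate receptor auxiliary gene Neto2 was 0.12 in the 118Q line and 0.31 in the Ctm line. In the 11Q line the delta receptor scaffold Grid2ip was 0.31, Cbln2 -0.24 with all knock-ins below, and Cbln1, a cerebellin of granule cells, 0.21.

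Of 19 measured genes of NMDA receptor scaffolds, signalling and co-agonists, 0 were called in any line, and the medians were -0.011, -0.032 and 0.061. In the 118Q line 9 changes were positive and 10 negative. All 118Q knock-ins were below for 4 genes and above for 1. Ctm knockouts were all below for 2 genes, and 11Q knock-ins all above for 1. Over all probe sets, 16.3%, 19.4% and 9.88% did not overlap in either direction in the 118Q, Ctm and 11Q lines. In the 118Q line the scaffold genes Dlg2 (-0.37, SE 0.10, limma adjusted p = 0.0695), Homer3 (-0.45, SE 0.16) and Dlg3 (-0.23, SE 0.11) had all knock-ins below all wild types. In the Ctm line Dao, which degrades D-serine, was -0.19 with all knockouts below, Dlg4 -0.19 and Dlgap4 -0.14. In the 11Q line Shank3 was 0.43 with all knock-ins above, Dlgap3 0.39 and Homer3 0.36.

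Among the 4 AMPA receptor subunits, 1 rose in the Ctm line, where 0.835% of all genes rose. Gria2, the subunit that limits calcium entry, was 8.63 ± 0.14 (SD, n = 3) in Ctm knockouts and 7.46 ± 0.57 in wild types, a change of 1.18 (SE 0.19, limma adjusted p = 0.00900). Wild types of the 118Q and 11Q lines averaged 8.47 and 8.57 for Gria2. The Ctm wild types were thus the lowest wild-type group, and the Ctm knockouts lay near the wild types of the other lines. The call was lost without wild-type array 3 (0.90, limma adjusted p = 0.0731), knockout array 1 (limma adjusted p = 0.0682) or knockout array 2 (limma adjusted p = 0.0508). Without wild-type arrays 2 and 3 together the change was 0.58. Those 2 arrays were set apart above by a low mean of these same 4 genes. A smaller Gria2 change without them is therefore no separate check. Gria3 and Gria4 were 0.54 and 0.36, with all knockouts above, and the list's median was 0.45. With Gria2, all knockouts were above for 3 of the 4 genes, against 19.4% of all probe sets without overlap in either direction. In the 118Q line Gria1 was 0.39 and Gria3 -0.72, and 0 of 4 were called. Of the 4 glutamate uptake genes, 1 fell in the 118Q line. Slc1a6, the transporter of Purkinje cells and also on the Purkinje cell list, was 7.03 ± 0.55 in knock-ins and 8.14 ± 0.069 in wild types, a change of -1.11 (SE 0.18, limma adjusted p = 0.0105), and the list's median was -0.17. That call was lost without wild-type array 3 (limma adjusted p = 0.0644), knock-in array 2 (-0.88, limma adjusted p = 0.0511) or knock-in array 3 (limma adjusted p = 0.0880).

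**Figure D5:**
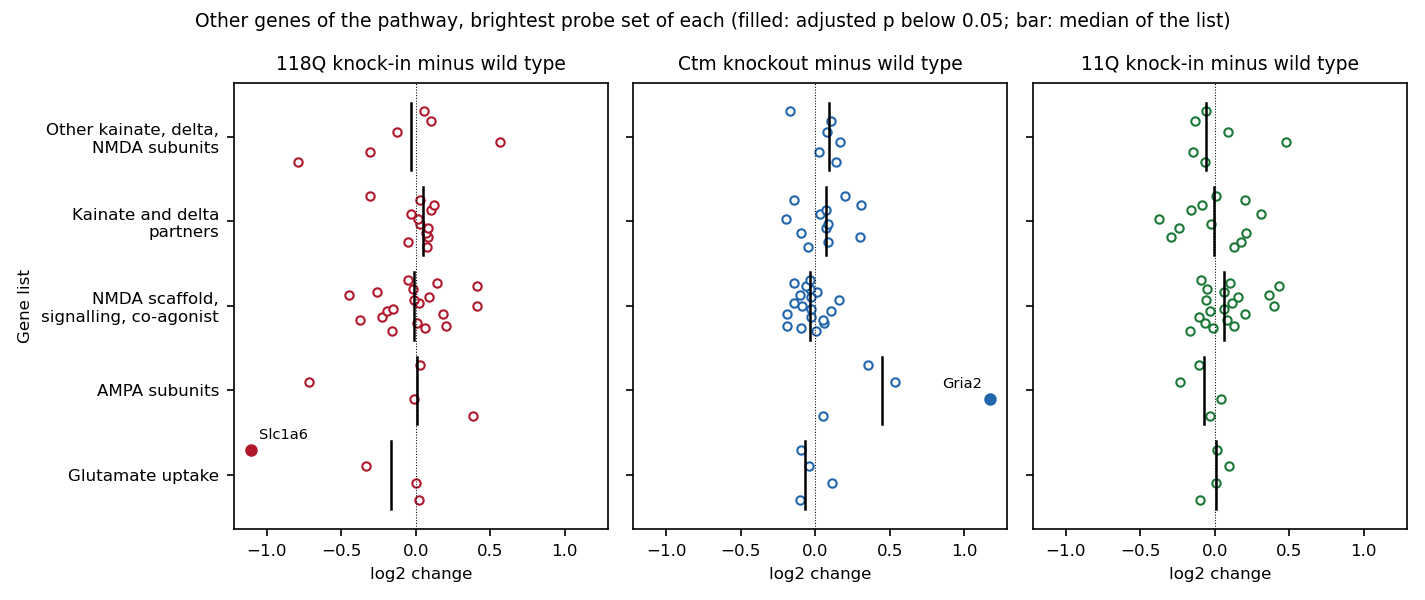
Log2 change, mutant minus wild-type littermates, of each measured gene in 5 lists of related genes for the 118Q, Ctm and 11Q lines, by the brightest probe set. Gria2 in the Ctm line (1.18) and Slc1a6 in the 118Q line (-1.11) passed the test.

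Over the 18 arrays, the brightest probe set of each member was set against 9097 genes of the brighter part of the array, as a description of these arrays, which share lines and processing. Grik1 followed Slc35f1, Vstm2a and Tm9sf2 most closely (Pearson r = 0.95, 0.95 and 0.94), and without 118Q knock-in arrays 2 and 3 r was 0.78, 0.84 and 0.87. Grik2 followed Pcf11, Ubxn2a and Dynlt3 (r = 0.93, 0.91 and 0.90), and without Ctm wild-type arrays 2 and 3 r was 0.81, 0.74 and 0.70. Grid1 followed Mgat5, Man1a2 and Ublcp1 (r = 0.81, 0.79 and 0.75). Grin2c followed Adamts10, Setd1a and Clcn2 (r = 0.89, 0.87 and 0.87), and without wild-type array 3 of the 11Q and 118Q lines r was 0.71, 0.60 and 0.78. Grin2b followed Lrp1, Lonrf2 and Nhsl2 (r = 0.87, 0.86 and 0.84), and Grin2a, at its dim signal, Tmem159, Phospho2 and Mpp6 (r = 0.79, 0.76 and 0.76).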

How the data were processed

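Total RNA of mouse cerebellum was hybridised to Affymetrix arrays, 18 in all. The authors deposited log2 values per probe set, made with RMA (version not stated) per the submitters' processing notes; the zero point of the scale is not given in the sources used here. The file held 45101 probe sets, from -0.26 to 12.2. The 64 controls and 10092 probe sets with several symbols or none were left out, which left 34945; no filter on dim probe sets was applied. The members and lists were chosen with earlier results of these data known.

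All 18 arrays entered a single limma 3.58.1 model (R 4.3.3) of 6 group means, with a constant eBayes prior, 12 residual and 5.88 prior degrees of freedom. It gave the change of each mutant from its wild types, how that change differed between lines, and an F test of the wild types of the 3 lines. The Benjamini-Hochberg adjustment of the two-sided p values ran over all 34945 probe sets, and 0.05 was the threshold. Lists used the brightest probe set of each gene (18193 genes). Scripts were tested on simulated data. The number of arrays limits the precision.

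Every member probe set is named. Array values are given for the brightest and for any with an unadjusted p under 0.05 in a line. Up to 3 genes of each list by smallest p are named in each line, and the 3 genes most correlated with each member; Gabra6, Pcp2 and Emx1 were named as tissue checks. Alternatives were other probe set choices, no dim probe sets, trend and robust settings, array weights, renewed quantile normalisation, RNA quality and choroid plexus covariates, a replicate block, the arrays of a line alone, other controls, a fold of at least 1.5, and leaving out each array. The omission of Ctm wild-type arrays 2 and 3 together was chosen after seeing the data.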

Additional observations from a re-analysis of the deposited data

Results flagged for a closer look

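The change in the dimmer Grik1 probe set, 1439987_at, ran in opposite directions in 2 lines: all 3 118Q knock-ins were below and all 3 Ctm knockouts above their wild types. The difference in the change, 118Q minus Ctm, was -0.72 (SE 0.19), and limma's test of it gave an adjusted p of 0.0577, which did not pass. Against the 6 wild types of the 118Q and 11Q lines the Ctm change turned to -0.047, and without Ctm wild-type arrays 2 and 3 the difference was -0.61 (SE 0.22, limma adjusted p = 0.294). Grik2 1457683_at did the same in the Ctm and 11Q lines, with all Ctm knockouts above and all 11Q knock-ins below their wild types. The difference in the change, Ctm minus 11Q, was 0.64 (SE 0.16, limma adjusted p = 0.198), which did not pass either. Against the same 6 wild types the Ctm change turned to -0.029, and without Ctm wild-type arrays 2 and 3 the difference was 0.46 (SE 0.19, limma adjusted p = 0.776).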

How the results depend on the processing

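Counts of calls moved with the settings, and the cause was not tested beyond the arrays left out. Of the 12 member probe sets, the single Ctm call became 0 with a fold of at least 1.5, the mean of probe sets, trend and robust settings, the RNA quality or choroid plexus covariate, the 6 arrays of the line alone, or without Ctm wild-type arrays 2 and 3. The 118Q count rose from 0 to 3 with array weights and with all 6 wild types from the 118Q and 11Q litters as control. Differences between lines went from 0 to 1 with all probe sets except controls or the choroid plexus covariate, and to 3 with array weights. The 4 differences between wild-type groups became 1 with the brightest probe set or the mean and 2 without the dimmer 50%. Leaving out 1 array gave 0 to 2 member calls in the 118Q line, 0 to 1 in the Ctm line, 0 in the 11Q line, 0 to 2 for the differences and 2 to 5 for the wild types. Over all probe sets the 195 calls of the 118Q line (93 higher, 102 lower) became 562 with all probe sets except controls, 491 without the dimmer 50%, 412 with trend and robust settings, 1681 with array weights, 298 with renewed quantile normalisation (105 higher, 193 lower), 1 with the RNA quality covariate, 0 with the line alone and 2262 with 6 wild types as control. The 320 Ctm calls became 169 by the brightest probe set, 176 by the mean, 492 without the dimmer 50%, 1028 with array weights, 2 with the line alone, 3678 with 6 wild types as control and 5 without Ctm wild-type arrays 2 and 3. The 11Q count of 0 became 3 with trend and robust settings, 5 with array weights, 4 with the line alone and 1 with 6 wild types as control. Leaving out 1 array gave 1 to 1078, 4 to 796 and 0 to 2 calls. Deviations of same-numbered arrays had correlations from -0.12 to 0.22, which shows no pairing by number but cannot exclude one. The main fit paired no arrays. With the replicate block there were 92 calls in the 118Q line and 1 in the 11Q line, and no member call changed. Changes that turned sign were all uncalled except Ctm Grik2 1457683_at, at -0.029 against 6 wild types. Against those controls Ctm Grik1 1439987_at was -0.047, Ctm Grin2a 0.050, Ctm Grin2b 1431700_at 0.18 and 11Q Grin2a -0.053. With the mean of probe sets, Ctm Grin2b was -0.088, 11Q Grid1 0.077 and 11Q Grin2b -0.061. With array weights, 118Q Grik2 was -0.068 and Grin2a -0.056, and with the choroid plexus covariate 11Q Grin2a was -0.043. Without Ctm wild-type arrays 2 and 3, Ctm Grid1 was 0.0046 and Grin2c -0.18. Leaving out 1 array gave ranges across 0 for 118Q Grik2 (-0.021 to 0.12), Grin2a (-0.11 to 0.28) and Grin2b 1431700_at (-0.035 to 0.29), for Ctm Grid1 (-0.15 to 0.091), Grin2a (-0.13 to 0.075) and Grin2c (-0.058 to 0.12), and for 11Q Grin2b 1457003_at (-0.020 to 0.32) and 1431700_at (-0.20 to 0.076). In all, 389 of 432 single probe set alternatives kept direction and side. Grik1 1439987_at, Grid1 1421569_at, Grin2a and all 4 Grin2b probe sets lay near or below the array median, where signal limits the change that can be measured.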

Other observations

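Wild-type array 3 of the 11Q line and of the 118Q line were at the same end of their group for 8 of the 12 member probe sets, a pattern chosen after the values were seen. It was not counted over all probe sets, so it is not shown to be particular to the members. On the 11Q array Grin2c was 7.21, Grik1 1427676_a_at 4.69, Grin2b 1442370_at 2.83 and Grid1 1421569_at 1.67. On the 118Q array they were 7.54, 4.40, 2.26 and 1.83. In both groups of wild types, array 3 was lowest for Grin2c and Grid1 1421569_at and highest for Grik1 1427676_a_at and Grin2b 1442370_at. The arrays were at opposite ends for 2 probe sets: Grin2b 1431700_at was lowest on the 11Q array (1.45) and highest on the 118Q array (2.05), and Grik2 1457683_at was highest on the first (4.68) and lowest, in a tie, on the second (4.65). For the 2 others, Grin2a and Grid1 1441499_at, one of the arrays was in the middle. The RNA quality measure was 0.50 on the 11Q array, lowest of its group, and 0.61 on the 118Q array, highest of its group.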
